A study of Rattus norvegicus with 14 samples.

Results

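Complement genes of rat liver were compared between rats fed 3 diets that differed in magnesium. The 8 genes considered were C3, C9 and C1qb, which encode complement components, and C4bpa, C4bpb, Cfi, Cd55 and Cd59, which encode regulators. Every probe set (a group of short DNA probes on the array that together measure 1 transcript) with 1 of these symbols in the platform annotation was taken, whatever its values. This gave 10 probe sets for 7 genes, out of 8740 probe sets other than controls and 4736 genes named by 1 symbol. Cd59 was reached through its platform symbol Cd59b, for which the RefSeq gene table lists Cd59 as a synonym. No probe set was listed under Cfi, the protease that cuts C3b and C4b, so Cfi has no values here.

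RNA came from the left lateral lobe of the liver, taken at necropsy, and was hybridised to an Affymetrix rat array. The 14 arrays were 5 from a Mg++ supplemented diet (arrays 1 to 5), 5 from a standard diet (6 to 10) and 4 from a Mg++ deficient diet (11 to 14). Neither strain, sex and age nor the composition and length of the diets were in the sources used here. Nothing in the labels says that arrays came from different animals, so the p-values rest on a spread between arrays that may be technical.

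Complement is a cascade of plasma proteins that marks and lyses microbes. C1q, the lectin pathway proteins and a slow spontaneous turnover of C3 all lead to the cutting of C3, and the late components, ending with C9, form a pore in the target membrane. Regulators hold the cascade off the body's own cells and in the fluid phase: C4b-binding protein (C4bpa and C4bpb are its chains) and factor I inactivate C4b and C3b, Cd55 takes apart the enzymes that cut C3, and Cd59 blocks the insertion of C9. Hepatocytes make most of the circulating C3, C9 and C4b-binding protein, whereas C1q is made mainly by macrophages, which in liver are the Kupffer cells.

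The upstream sequences of 3 genes made by hepatocytes (C3, C4bpa and C4bpb) are shown beside that of C1qb, the macrophage gene on which most of the results below turn. RefSeq's promoter table (GRCr8) had entries for 5 of the 7 genes with a probe set, these 4 and Cd55, whose sequence is not shown. The 250 bases before the annotated start are given 5′ to 3′ on the gene's strand, all on the minus strand of the chromosome. Capitals mark matches on either strand to TTGCNNAA, a form of the C/EBP motif, or to TTCNNNGAA, the STAT motif, 2 factor families known in hepatocyte inflammation.
C3, chr9:2201340-2201589, minus strand: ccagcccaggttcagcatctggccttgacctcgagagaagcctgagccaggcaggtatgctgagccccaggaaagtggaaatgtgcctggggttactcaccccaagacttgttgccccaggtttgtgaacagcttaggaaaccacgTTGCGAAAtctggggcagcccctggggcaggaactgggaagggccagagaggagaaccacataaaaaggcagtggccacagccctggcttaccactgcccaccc
C4bpa, chr13:44663472-44663721, minus strand: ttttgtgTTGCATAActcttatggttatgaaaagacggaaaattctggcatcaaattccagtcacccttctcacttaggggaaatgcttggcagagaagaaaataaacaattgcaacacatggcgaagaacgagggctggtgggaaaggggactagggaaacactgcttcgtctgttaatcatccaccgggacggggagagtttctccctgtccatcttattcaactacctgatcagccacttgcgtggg
C4bpb, chr13:44683782-44684031, minus strand: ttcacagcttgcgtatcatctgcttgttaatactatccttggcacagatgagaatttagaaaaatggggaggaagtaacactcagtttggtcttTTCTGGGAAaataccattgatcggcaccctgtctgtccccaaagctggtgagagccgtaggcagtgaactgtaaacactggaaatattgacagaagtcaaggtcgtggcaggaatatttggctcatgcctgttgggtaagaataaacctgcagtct
C1qb, chr5:154407828-154408077, minus strand: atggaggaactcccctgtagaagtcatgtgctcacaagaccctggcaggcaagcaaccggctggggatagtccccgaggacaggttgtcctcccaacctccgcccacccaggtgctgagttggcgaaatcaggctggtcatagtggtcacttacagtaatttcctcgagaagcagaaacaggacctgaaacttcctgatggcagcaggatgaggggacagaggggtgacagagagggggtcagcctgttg
C3 held TTGCGAAA from 104 to 97 bases before the start. C4bpa held TTGCATAA from 243 to 236 bases before it, and C4bpb held TTCTGGGAA, a match on both strands, from 156 to 148 bases before it. These matches do not overlap one another, and neither the C1qb window nor that of Cd55 held either motif. Among 33469 windows of the same length in the table, 9.22% held TTGCNNAA and 7.67% held TTCNNNGAA. A match describes these letters and is not a measured binding site.

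Hepatocyte markers were bright on all arrays (Alb, the albumin gene, ran from 7530 to 9258 units, and 11 of 12 listed markers were measured), as the labelled tissue requires. Array medians ran from 18.0 to 34.4 units, and signals are given after quantile normalisation, which gives all arrays the same distribution. A 3'/5' ratio of the Gapdh control probe sets, which rises when RNA is degraded or incompletely copied, was lowest on the supplemented diet. Its log2 was 0.71 ± 0.49 (SD, n = 5) supplemented, 1.64 ± 0.61 (SD, n = 5) standard and 1.84 ± 0.65 (SD, n = 4) deficient. The supplemented arrays were lower than the standard arrays (two-sided exact permutation p = 0.0159) and the deficient arrays (exact permutation p = 0.0317), each with an adjusted p of 0.0952 over 6 comparisons of array ratios. The same ratio of the beta-actin control probe sets had log2 means of 0.96 supplemented, 1.52 standard and 1.85 deficient. Its exact permutation p was 0.103 for supplemented against standard and 0.0635 for deficient against supplemented. Supplemented array 5 had the lowest mean rank correlation with the other arrays (0.913, against 0.940 or more elsewhere), and standard array 10 and deficient array 13 had the highest Gapdh ratios (2.65 and 2.68).

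No complement gene of the set differed between diets at an adjusted p under 0.05. Of the 10 probe sets, 8 (for 6 genes) were bright enough to be tested, and those of Cd55 were not. Between the deficient and the standard diet, 6 of 8 were higher and 2 lower on the deficient diet, with a median log2 difference of 0.05 against 0.00059 over all 5133 probe sets tested. None of the 8 had an unadjusted p under 0.05 (3.04% of all tested did), none separated the diets without overlap (1.44% did), and the share called at an adjusted p under 0.05 was 0% overall. In 7 of 8 the difference was smaller than its own standard error. The 95% intervals of all 8 lay between 0.678-fold and 1.55-fold.

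Between the supplemented and the standard diet, 6 of 8 were higher and 2 lower on the supplemented diet (median log2 difference 0.15, against -0.016 overall). C1qb was the 1 of 8 at an unadjusted p under 0.05, or 12.5% against 8.88% of all tested, no member separated the diets (1.81% overall did), and 0% of all tested were called. Between the deficient and the supplemented diet, 3 were higher and 5 lower (median -0.054, against 0.023 overall). C1qb was again the 1 of 8 at an unadjusted p under 0.05 (12.5% against 13.0%) and the 1 whose arrays did not overlap (12.5% against 4.95%). In the same comparison 0.0195% of all tested, 1 probe set and not a member, passed the adjusted threshold, as did 0.0195% in the F-test of any difference among the 3 diets. With 8 probe sets, a count of 1 lies near both backgrounds at the unadjusted p. These comparisons share the standard or the supplemented arrays and are not independent of one another.

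**Figure D1:**
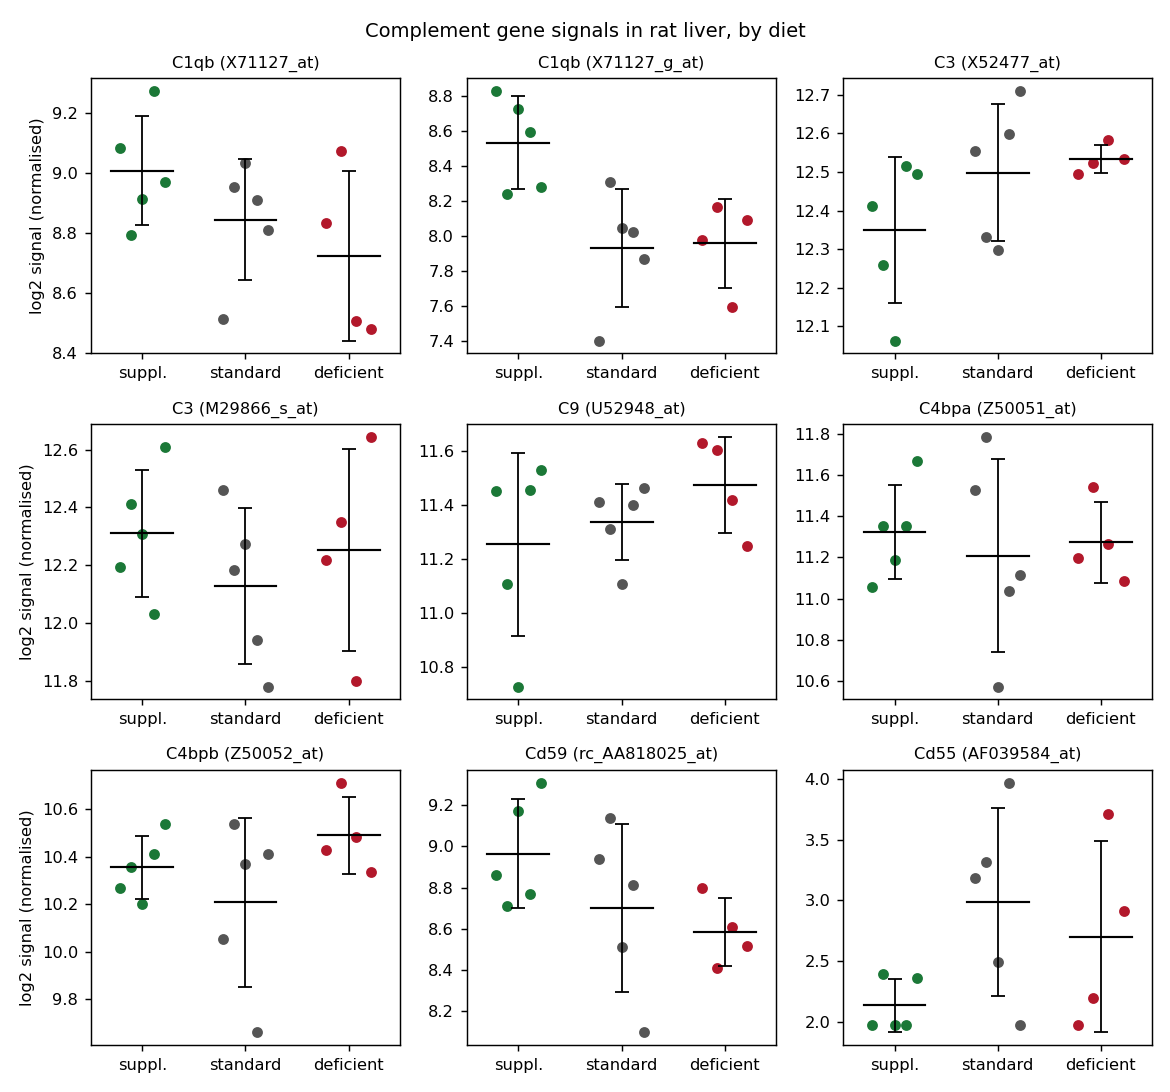
Normalised log2 signal (y axis) of 9 complement probe sets on each array, by diet (x axis); points are arrays, bars the mean and whiskers ± 1 SD (n = 5, 5 and 4). Each panel has its own scale. The 5 supplemented arrays of C1qb X71127_g_at lie above the 4 deficient arrays, while the other tested panels overlap between all diets.

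**Figure D2:**
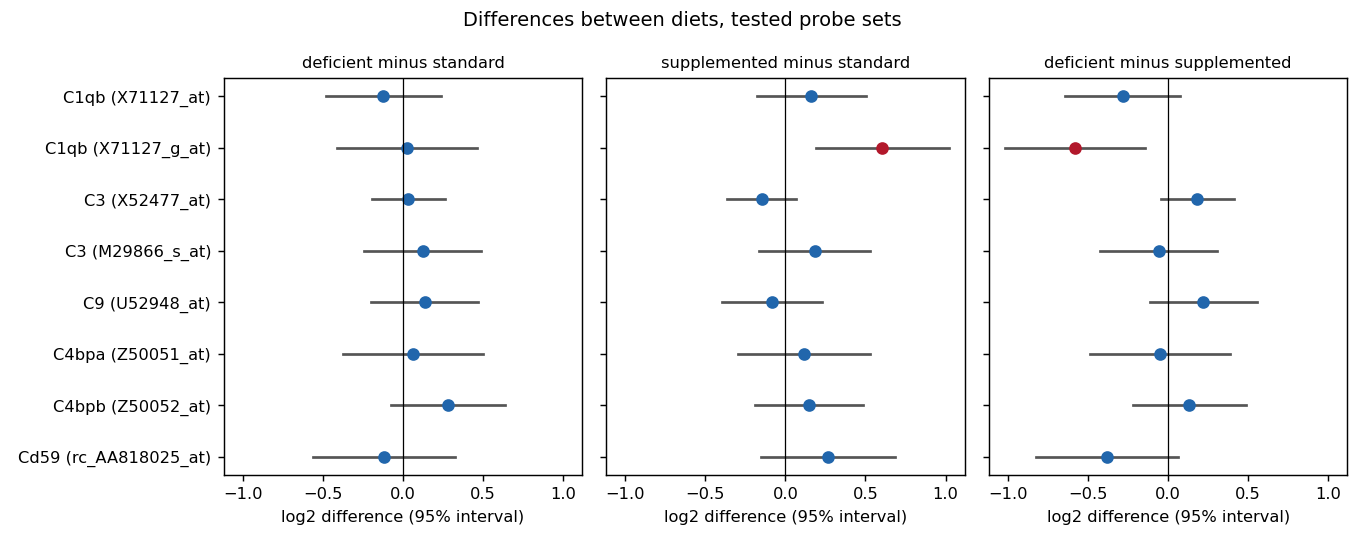
log2 difference between diets (x axis) with its 95% interval for the 8 tested probe sets (y axis), in the 3 comparisons; red marks an unadjusted limma p under 0.05. The 2 red points are both C1qb X71127_g_at, and all intervals of the deficient against the standard diet include 0.

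C1qb encodes the B chain of C1q, the molecule that binds antibody on a target and starts the classical pathway. Its probe set X71127_g_at read 455, 302, 424, 387 and 311 units on supplemented arrays 1 to 5. On standard arrays 6 to 10 it read 169, 318, 264, 260.0 and 234 units, and on deficient arrays 11 to 14 252, 287, 193 and 273 units. All 5 supplemented arrays lay above all 4 deficient arrays, and standard array 7 alone among the standard arrays reached into the supplemented range. The geometric mean on the supplemented diet was 1.52 times that on the standard diet (95% interval 1.14 to 2.03), or 0.61 ± 0.19 on the log2 scale (SE, limma adjusted p = 0.474). It was 1.49 times that on the deficient diet, a deficient minus supplemented log2 difference of -0.58 ± 0.21 (SE, limma adjusted p = 0.306). The deficient minus standard difference was 0.028 ± 0.205 (SE). By mean log2 signal the order was supplemented (8.54 ± 0.26, SD, n = 5), deficient (7.96 ± 0.26, SD, n = 4) and standard (7.93 ± 0.34, SD, n = 5), and the last 2 did not differ beyond their spread.

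The other C1qb probe set, X71127_at, kept the supplemented diet highest with smaller differences. It read 543, 444, 482, 618 and 501 units on the supplemented arrays, 365, 496, 524, 481 and 448 units on the standard arrays, and 456, 538, 364 and 357 units on the deficient arrays. All 3 diets overlapped on it. The supplemented minus standard difference was 0.16 ± 0.16 (SE, limma adjusted p = 0.769), and the deficient minus supplemented difference was -0.28 ± 0.17 (SE, limma adjusted p = 0.480). With arrays centred on their medians both were near 0, at 0.0023 and -0.018, or 0.11 and -0.18 relative to the median of all tested. Over the 14 arrays both probe sets correlated with r = 0.71 (permutation p = 0.00465, adjusted 0.0604 over 13) and rho = 0.67 (permutation p = 0.0126, adjusted 0.0820), and r was 0.74 without deficient arrays 13 and 14. With both averaged, the supplemented minus standard difference of C1qb was 0.38 (limma adjusted p = 0.518) and deficient minus supplemented was -0.43 (limma adjusted p = 0.337), both at an unadjusted p under 0.05.

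In both comparisons with the supplemented diet most macrophage markers lay on the same side as C1qb, and their part in its difference was not tested. In a bulk sample, fewer cells of a type and less RNA per cell cannot be told apart. Of 16 Kupffer cell and macrophage markers listed, 10 were on the array and 9 were tested, and Csf1r, the untested one, reached 15.8 units at most and was at the floor on 1 array. On the supplemented diet 8 of 9 were higher than on the standard diet (median log2 difference 0.31, against -0.034 over all genes tested). There 1 of 9 was at an unadjusted p under 0.05, against 8.14% of all genes tested. On the deficient diet 7 of 9 were lower than on the supplemented diet (median -0.19, against 0.055 over all genes). In that comparison 1 of 9 was at an unadjusted p under 0.05 (12.3% of all genes) and not overlapping (4.78% of all genes). In both comparisons that 1 gene was Clec4f. Aif1 went the other way in both, at -0.40 ± 0.38 (SE) supplemented minus standard and 0.69 ± 0.40 (SE) deficient minus supplemented. Lyz2 did so in the latter, at 0.55 ± 0.49 (SE). Between the deficient and the standard diet 7 of 9 were higher on the deficient diet (median 0.11, against 0.013 over all genes). There 0 of 9 were at an unadjusted p under 0.05 (3.19% of all genes), and C1qb differed by 0.028 (X71127_g_at) and -0.12 (X71127_at). The summed level of the 9 ran from 1355 to 2140 units on the supplemented arrays, 1335 to 1882 units on the standard arrays and 1513 to 1770 units on the deficient arrays, so these sums overlapped. None of the tested markers sat at the floor on any array. Clec4f, the Kupffer cell receptor gene, was the gene most like C1qb X71127_g_at among 3067 compared, with r = 0.92 over the 14 arrays and 0.83 after the diet means were taken out. Clec4f itself had r = -0.64 with the log2 Gapdh ratio. Clec4f read 362, 351, 381, 382 and 306 units supplemented, 221, 322, 273, 327 and 249 units standard, and 295, 302, 229.6 and 278 units deficient. As with C1qb X71127_g_at, though not X71127_at, the 5 supplemented arrays lay above the 4 deficient arrays. Its supplemented minus standard difference was 0.37 ± 0.15 (SE, limma adjusted p = 0.516) and its deficient minus supplemented difference was -0.37 ± 0.16 (SE, limma adjusted p = 0.369).

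**Figure D3:**
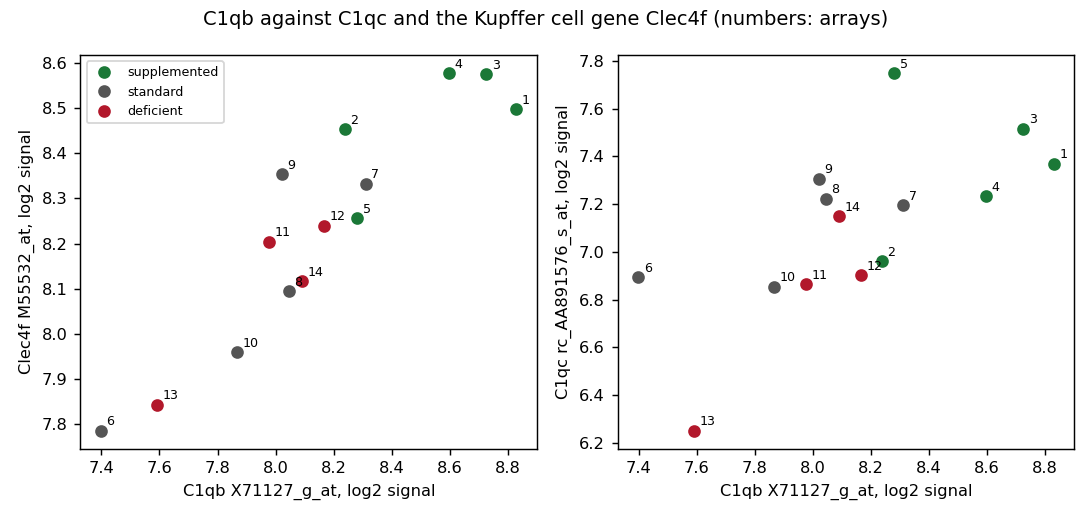
Normalised log2 signal of Clec4f (left, y axis) and C1qc (right, y axis) against C1qb X71127_g_at (x axes) on the 14 arrays, coloured by diet and numbered by array. Clec4f follows C1qb closely (r = 0.92), with standard array 6 and deficient array 13 lowest on the C1qb axis in both panels.

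RNA quality also moved with C1qb on X71127_g_at. X71127_g_at correlated with the log2 Gapdh ratio at r = -0.62 (permutation p = 0.0185, adjusted 0.0370 over 4) and rho = -0.71 (permutation p = 0.00557, adjusted 0.0223). Without standard array 10 and deficient array 13 r was -0.48, and within diets it was -0.24 (permutation p = 0.415), so the relation did not hold within diets. X71127_at, which stands for the gene, had r = -0.37 (permutation p = 0.195, adjusted 0.356 over 12) and -0.048 within diets. The family of 4 held only second probe sets, added later, and no relation in the family of 12 passed the adjustment. With the Gapdh ratio as a covariate the supplemented minus standard difference of X71127_g_at was 0.50 (limma adjusted p = 0.999), and deficient minus supplemented was -0.44 (limma adjusted p = 1), neither at an unadjusted p under 0.05. With arrays centred on their medians in place of quantile normalisation these were 0.46 (limma adjusted p = 0.563) and -0.35 (limma adjusted p = 0.507), again not at an unadjusted p under 0.05. That centring moved the median of all tested probe sets to -0.11 and 0.17, and relative to these medians the C1qb differences were 0.57 and -0.51.

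C3, the component on which all pathways meet, was high on every array, and its 2 probe sets did not order the diets alike. X52477_at read 5452, 4903, 4277, 5857 and 5776 units on the supplemented arrays. It read 6011, 5158, 5033, 6199 and 6702 units on the standard arrays, and 5776, 5884, 6135 and 5925 units on the deficient arrays. The deficient arrays stood close together, with a log2 SD of 0.036 against 0.18 standard and 0.19 supplemented, inside the range of the standard arrays. By mean log2 signal the order was deficient (12.53), standard (12.50) and supplemented (12.35), and no neighbours in it differed beyond their spread. The deficient minus standard difference was 0.035 ± 0.108 (SE), supplemented minus standard -0.15 ± 0.10 (SE, limma adjusted p = 0.678), and deficient minus supplemented 0.18 ± 0.11 (SE, limma adjusted p = 0.471). With arrays centred on their medians the last 2 were -0.47 (limma adjusted p = 0.532) and 0.46 (limma adjusted p = 0.262), both at an unadjusted p under 0.05, and -0.36 and 0.29 relative to the median of all tested. The brightest probe sets tested by mean signal, which include X52477_at, had medians of -0.245 and 0.318 with that centring. The values relative to all tested therefore overstate how far X52477_at stood from probe sets as bright. So the size of both C3 differences depended on the scaling.

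M29866_s_at, the other C3 probe set, read 4686, 5452, 5072, 4182 and 6246 units on the supplemented arrays. It read 5638, 4657, 4956, 3938 and 3518 units on the standard arrays, and 4767, 5219.8, 3569.6 and 6403 units on the deficient arrays. Here the supplemented diet had the highest mean, with a supplemented minus standard difference of 0.18 ± 0.16 (SE, limma adjusted p = 0.747), and all diets overlapped. With the Gapdh covariate this difference turned to -0.15, and with median centring to -0.10. With that centring the brightest probe sets tested, which include M29866_s_at, had a median of -0.245. Across arrays both C3 probe sets ran against each other, with r = -0.36 (permutation p = 0.199) and rho = -0.36 (permutation p = 0.203), adjusted 0.557 and 0.661 over 13, and r was -0.37 without supplemented arrays 2 and 3. On the signals as deposited r was 0.39, so the sign of this relation depended on the scaling. M29866_s_at was lower where the Gapdh ratio was higher, with r = -0.65 (permutation p = 0.0112, adjusted 0.0370 over 4), rho = -0.46 (permutation p adjusted 0.134) and, within diets, r = -0.75 (permutation p = 0.00200). Without standard array 10 and deficient array 13, its lowest arrays, r was -0.28, so the relation rests on those arrays. X52477_at had r = 0.44 with the same ratio (permutation p = 0.112, adjusted 0.273 over 12).

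C9, which forms the ring of the lytic pore, ran with the X52477_at probe set of C3. It read 2796, 2203, 1696, 2807 and 2957 units supplemented, 2721, 2538, 2203, 2701 and 2823 units standard, and 3164, 3109, 2735 and 2428 units deficient. The lowest value was on supplemented array 3, which was also lowest for C3 X52477_at, and the highest were on deficient arrays 11 and 12. The mean order was deficient (11.47 ± 0.18 on the log2 scale, SD, n = 4), standard (11.34 ± 0.14, SD, n = 5) and supplemented (11.25 ± 0.34, SD, n = 5), and all 3 diets overlapped. Deficient minus supplemented was 0.22 ± 0.16 (SE, limma adjusted p = 0.549), deficient minus standard 0.14 ± 0.16 (SE), and supplemented minus standard -0.084 ± 0.148 (SE). Deficient minus supplemented was 0.47 with median centring (limma adjusted p = 0.256), or 0.31 relative to the median of all tested. The brightest probe sets tested, which include C9, had a median of 0.318 with that centring. With array weights the C9 difference was 0.34 (limma adjusted p = 0.227). Both C9 differences were at an unadjusted p under 0.05. Of 15 pairs among the 6 tested genes, C3 with C9 had the highest r, 0.80 (permutation p = 0.00111, adjusted 0.0166), and the within-diet r was 0.79 (permutation p = 0.000660, adjusted 0.00990). Spearman's rho was 0.45 (permutation p = 0.109, adjusted 0.545), and without supplemented arrays 2 and 3 r was 0.46, so the relation rests on those arrays.

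**Figure D4:**
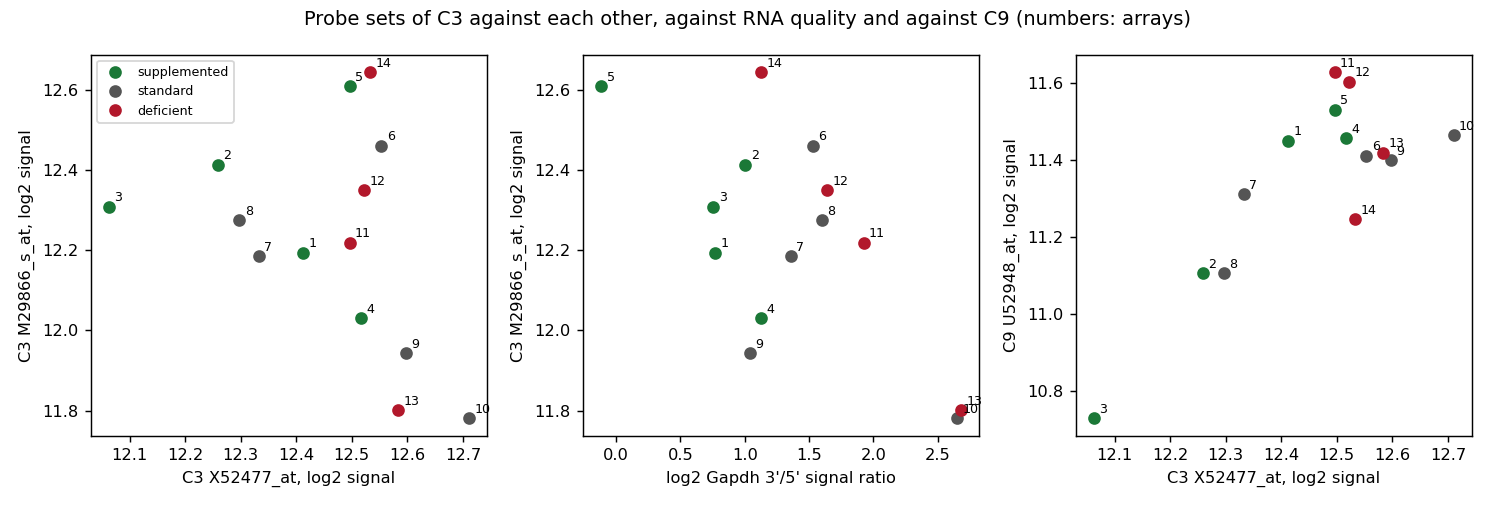
Log2 signals of C3 M29866_s_at against C3 X52477_at (left), C3 M29866_s_at against the log2 Gapdh 3'/5' ratio (middle) and C9 against C3 X52477_at (right), with arrays numbered and coloured by diet. The left panel slopes down (r = -0.36), standard array 10 and deficient array 13 share the lower right corner of the middle panel, and supplemented array 3 sits alone at the lower left of the right panel.

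C4bpa and C4bpb encode the alpha and beta chains of C4b-binding protein, the fluid-phase regulator of the classical and lectin pathways, and both lie on rat chromosome 13. C4bpa read 2132, 2614, 2329.7, 2614 and 3259 units on the supplemented arrays, 2957, 3534, 1522, 2102 and 2217 units on the standard arrays, and 2346, 2982, 2464 and 2172 units on the deficient arrays. Standard arrays 7 and 8 were the highest and the lowest of all 14, so the spread within the standard diet (log2 SD 0.47) exceeded every difference between diets. Those differences were 0.064 ± 0.205 (SE) deficient minus standard, 0.12 ± 0.19 (SE) supplemented minus standard and -0.051 ± 0.205 (SE) deficient minus supplemented.

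C4bpb had the largest deficient against standard difference of the 8 probe sets. It read 1232, 1312, 1176, 1362 and 1488 units supplemented, 1064, 1488, 1324, 809.6 and 1362 units standard, and 1377, 1677, 1432 and 1291 units deficient. Standard arrays 6 and 9 were the lowest of all 14, and the other standard arrays lay among those of the other diets. Deficient minus standard was 0.28 ± 0.17 (SE, limma adjusted p = 0.999), or 1.22-fold (95% interval 0.950 to 1.55). Without standard array 9 it was 0.14, and without standard array 7 it was 0.36 at an unadjusted p under 0.05. Deficient minus supplemented was 0.13 ± 0.17 (SE), and supplemented minus standard was 0.15 ± 0.16 (SE). C4bpb ranked with the log2 beta-actin ratio (rho = 0.72, permutation p = 0.00486, adjusted 0.0583 over 12), with r = 0.48 (permutation p = 0.0791). Within diets r was 0.56 (permutation p = 0.0397, adjusted 0.238). With the beta-actin covariate deficient minus supplemented was -0.062 and supplemented minus standard 0.27. With the log2 Gapdh ratio r was 0.17. With median centring deficient minus supplemented was 0.45 for C4bpb and 0.20 for C4bpa, neither at an unadjusted p under 0.05. Relative to the median of all tested these were 0.28 and 0.033. The brightest probe sets tested, which include those of both chains, had a median of 0.318 with that centring. Both chains tended to rank together over the arrays (rho = 0.61, permutation p = 0.0246, adjusted 0.324 over 15 pairs; r = 0.36, permutation p = 0.202, and 0.47 without standard arrays 7 and 8), which did not pass the adjustment.

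Cd59, the membrane inhibitor of the lytic pore, was highest on the supplemented diet. It read 465, 419, 578, 436 and 635 units on the supplemented arrays, 491, 563, 365, 450.3 and 274 units on the standard arrays, and 446, 341, 390.2 and 366 units on the deficient arrays. Deficient array 11 alone exceeded supplemented arrays 2 and 4, so the diets overlapped. The means were 8.96 ± 0.26 (SD, n = 5), 8.70 ± 0.41 (SD, n = 5) and 8.58 ± 0.17 (SD, n = 4) on the log2 scale, in the order supplemented, standard and deficient. Deficient minus supplemented was -0.38 ± 0.21 (SE, limma adjusted p = 0.439), or a supplemented level 1.30 times the deficient one. Supplemented minus standard was 0.26 ± 0.20 (SE, limma adjusted p = 0.700), and deficient minus standard was -0.12 ± 0.21 (SE). With median centring the first 2 were -0.11 and 0.081, or -0.28 and 0.19 relative to the median of all tested.

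Cd59 also ran with RNA quality: r with the log2 Gapdh ratio was -0.71 (permutation p = 0.00491, adjusted 0.0589 over 12) and rho -0.66 (permutation p = 0.0128, adjusted 0.0769). Without standard array 10 and deficient array 13 r was -0.60, and within diets it was -0.59 (permutation p = 0.0277, adjusted 0.238). The log2 beta-actin ratio gave a weaker relation, with r = -0.54 (permutation p = 0.0454, adjusted 0.273 over 12). It was -0.27 without the same arrays and -0.36 within diets (permutation p = 0.202). With the Gapdh covariate the supplemented minus standard difference of Cd59 was -0.021 and deficient minus supplemented was -0.033.

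Cd55, the decay-accelerating factor of cell membranes, was at the bottom of the measured range. AF039583_s_at sat at the floor of 3.93 units on all 14 arrays. AF039584_at was at the floor on 5 of 14 and read 3.93, 5.25, 3.93, 3.93 and 5.14 units supplemented, 9.10, 9.98, 5.63, 15.7 and 3.93 units standard, and 3.93, 4.58, 13.1 and 7.54 units deficient. The highest supplemented array stayed below 4 of the 5 standard arrays after normalisation. As deposited, supplemented array 5 read 7.92 units, above standard arrays 8 (5.00 units) and 10 (3.62 units). Both fell under the filter on dim probe sets, so they were read from a fit with no filter, chosen after the filter was seen to drop them. There the supplemented minus standard difference of AF039584_at was -0.85 ± 0.39 (SE, limma adjusted p = 0.669), a value that values at the floor compress. Without detection calls, whether these signals lay above background is unknown.

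The members' within-diet log2 SD ran from 0.158 (C3 X52477_at) to 0.331 (C4bpa) over the 8 tested probe sets, below the median of 0.389 over all tested. The median of the brightest 514 tested was 0.259, and 4 of the 8 members exceeded it. Among these were Cd59 (0.304) and C1qb X71127_g_at (0.291), which are dimmer than those 514, as is C1qb X71127_at.

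The rest of the complement pathway was read from 49 genes, of which 17 were on the array under 1 symbol and 14 were tested. None was called in any of the 3 comparisons. Between the deficient and the standard diet 5 of 14 were higher and 9 lower (median -0.038, against 0.013 over all genes tested). Of the 14, 0 were at an unadjusted p under 0.05 (3.19% of all genes). Between the supplemented and the standard diet 7 were higher and 7 lower (median -0.0011, against -0.034 over all genes). Here 2 were at an unadjusted p under 0.05 (8.14% of all genes). Between the deficient and the supplemented diet 6 were higher and 8 lower (median -0.064, against 0.055 over all genes). Here 3 were at an unadjusted p under 0.05 (12.3% of all genes), 1 of them not overlapping (4.78% of all genes).

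C1qc, the C chain of C1q, had the same order of diet means as C1qb X71127_at. Its tested probe set read 165, 125, 183, 150.4 and 215 units supplemented, 119, 146, 149, 158 and 116 units standard, and 116, 119.6, 76.1 and 142 units deficient. Deficient array 13 was lowest and supplemented array 5 highest. Deficient minus supplemented was -0.57 ± 0.21 (SE, limma adjusted p = 0.308), and supplemented minus standard was 0.27 ± 0.20 (SE, limma adjusted p = 0.694). C1r, the protease that C1q activates, went the other way, with a deficient minus supplemented difference of 0.34 ± 0.16 (SE, limma adjusted p = 0.383).

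Serping1, the C1 inhibitor gene, read 2304, 2196, 2172, 2067 and 2172 units supplemented, 1677, 2245, 1956, 1805 and 1681 units standard, and 1781, 1681, 1781 and 2017 units deficient. All supplemented arrays lay above all deficient arrays. Deficient minus supplemented was -0.27 ± 0.11 (SE, limma adjusted p = 0.335), and supplemented minus standard was 0.23 ± 0.10 (SE, limma adjusted p = 0.541).

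Mbl1 and Mbl2 encode mannose-binding lectins, which start the lectin pathway, and supplemented array 5 bore on the values of both. Mbl1 AF080507_at read 816, 1042, 895, 899 and 372 units supplemented against 889, 1259, 1335.5, 947 and 1366 units standard, a difference of -0.59 ± 0.26 (SE, limma adjusted p = 0.541). Its second probe set, AF080507_g_at, read 289, 358, 335, 289 and 229 units supplemented against 389.6, 528, 468, 364 and 441 units standard. These did not overlap, as in 1.81% of all probe sets tested, and the difference was -0.55 ± 0.17 (SE, limma adjusted p = 0.474). Mbl2 rc_AA893453_at differed by 0.30 ± 0.15 (SE, limma adjusted p = 0.561), and its dimmer probe set X05023_at by -0.082 ± 0.336 (SE). Without supplemented array 5, a setting added after the values were seen, the Mbl1 differences were -0.33 (AF080507_at) and -0.46 (AF080507_g_at), and those of Mbl2 were 0.23 (rc_AA893453_at) and 0.31 (X05023_at). Of these 4, AF080507_g_at alone was then at an unadjusted p under 0.05 (limma adjusted p = 0.532). In that setting deficient minus supplemented was -0.69 for Mbl2 X05023_at (limma adjusted p = 0.359), against -0.29 with all arrays. It was 0.26 for C1r, against 0.34 with all arrays, and no longer at an unadjusted p under 0.05. C5ar1, the receptor for C5a, had a deficient minus standard difference of -0.15 ± 0.19 (SE, limma adjusted p = 0.999).

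**Figure D5:**
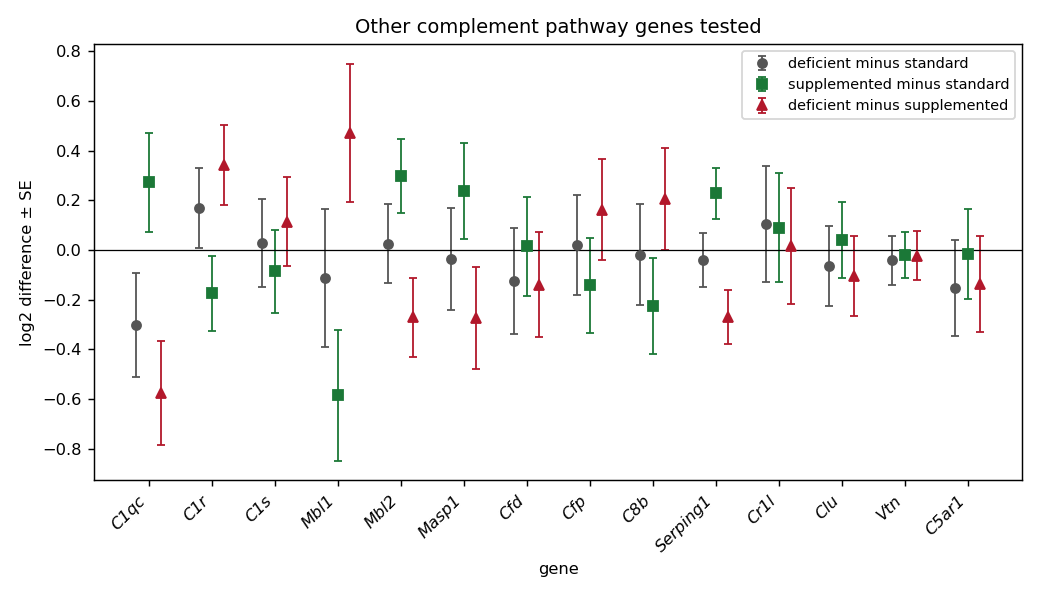
Log2 difference ± SE (y axis) of the 14 other complement genes tested (x axis), 1 probe set a gene, in the 3 comparisons. C1qc and Serping1 lie below 0 for deficient minus supplemented, and Mbl1 lies below 0 for supplemented minus standard (-0.59).

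As context, 16 liver acute phase genes were tested, with 11 higher and 5 lower on the deficient than on the standard diet (0 of 16 at an unadjusted p under 0.05, against 3.19% of all genes tested). In that comparison Itih3 was the 1 of 16 whose arrays did not overlap (1.76% of all genes), named here after its values were seen, with a difference of 0.18 ± 0.09 (SE, limma adjusted p = 0.999). Supplemented against standard 11 were higher and 5 lower (2 of 16, against 8.14%), and deficient against supplemented 7 were higher and 9 lower (1 of 16, against 12.3%). None was called.

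The genes most like each member were sought among 3067 tested genes by Pearson's r over the 14 arrays, as a description. For C3 X52477_at these were Urgcp (r = 0.88), Glg1 (0.87) and Psap (0.86), and r within diets was at least 0.83. C9 was most like Trappc1 (0.87, and 0.92 within diets), Tap2 (0.84) and Cby1 (0.80). C4bpa was most like C7h22orf23 (0.81), Hspb2 (0.76) and Kcnk1 (0.73), and C4bpb was most like Maea (0.88), Ttc3 (0.88) and Cd74 (0.84). Cd59 was most like Pdia4 (0.89), Maob (0.86) and Ttpa (0.82), and these genes themselves had r of -0.77, -0.74 and -0.81 with the log2 Gapdh ratio. C1qb X71127_at was most like Slc5a6 (0.75), Cidea (0.75) and Clec4f (0.71). For the second probe sets, added after the pairs were seen to differ, C1qb X71127_g_at was most like Clec4f (0.92), Jtb (0.80) and Cd53 (0.80), and C3 M29866_s_at was most like Enpp3 (0.78), Grhpr (0.77) and Ddn (0.76). With the log2 Gapdh ratio, r was -0.64 for Clec4f, -0.70 for Jtb and -0.33 for Cd53. Clec4f stood on both lists of C1qb, whereas both lists of C3 had no gene in common.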

How the data were processed

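The values are microarray intensities, signals of probe sets on a linear scale, as the authors deposited them. Per the labels, RNA was extracted with Trizol and RNeasy and about 5 µg of total RNA made each target. The software that made the signals is not given in the sources used here. Quantile normalisation of log2 signals, without the control probe sets, was followed by a floor at the pooled 20th percentile (3.93 units). Probe sets whose mean over all arrays exceeded the pooled 40th percentile (14.3 units) were tested, 5133 in all. The test was limma's (version 3.58.1, R 4.3.3): a fit of 3 diet means with eBayes and a trend, two-sided, adjusted by Benjamini-Hochberg over all 5133 and called under 0.05. The procedure was tested on simulated data. Because of the floor, log2 differences of dim probe sets are understated. Permutation p-values used 100000 resamples for correlations and full enumeration for array ratios.

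The platform annotation gave 1 symbol for 7006 of the 8740 probe sets that are no controls, several for 308 and none for 1426. Of the complement probe sets, 3 carried several symbols (C4b with C4a, or Cfb with C2) and were not named. All member probe sets are described; the brightest stands for its gene in pairs and lists. Other complement genes are named by smallest p, up to 3 a comparison, and like genes as the 3 with the highest r. The members and lists were chosen with earlier results of these data known. The number of arrays limits the precision, and levels of different probe sets are not comparable. Alternatives covered scaling, floor, filter, trend, array weights, RNA quality covariates and arrays left out.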

Additional observations from a re-analysis of the deposited data

How the results depend on the processing

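Over 630 values of the members' log2 differences under the alternatives, none was called and 3 turned in sign from a difference larger than its standard error. These were supplemented minus standard C3 M29866_s_at, at -0.10 with arrays centred on their median and -0.15 with the Gapdh ratio as a covariate, and Cd59, at -0.021 with the Gapdh covariate. Over the 336 values with 1 array left out, 0 did so. The share of all probe sets at an unadjusted p under 0.05 was not counted under the alternatives. The member counts that follow therefore have no background beside them and cannot be read as a result about the members. The member count at an unadjusted p under 0.05 was, for deficient against supplemented, 2 with median centring (C3 X52477_at and C9, not C1qb), 3 with array weights (C3 X52477_at, C9 and C1qb X71127_g_at) and 0 with the Gapdh or beta-actin covariate. For supplemented against standard it was 2 with no filter, which adds Cd55, and 0 with the Gapdh covariate, and the 1 with median centring was C3 X52477_at in place of C1qb. With 1 array left out it ran from 0 (without deficient array 13) to 2 (without standard array 10 or deficient array 12) for deficient against supplemented, and from 0 to 1 (without standard array 7) for deficient against standard. The count of all probe sets called for deficient against supplemented was 0 with signals as deposited, a 60th percentile filter, only both diets in the fit, either covariate, or without supplemented array 5, standard array 10 and deficient array 13 together, and 2 with no filter. The F-test count was 0 under the same settings that keep 3 diets and 2 with no filter. Supplemented against standard had 1 call with a 30th percentile floor, with no trend or with array weights, and deficient against standard had 1 with no filter. With 1 array left out, calls for deficient against supplemented ran from 0 (leaving out deficient array 11, 12 or 13, supplemented array 1, 3 or 4, or standard array 8) to 3 (without supplemented array 2) and 4 (without deficient array 14). F-test calls ran from 0 (leaving out deficient array 11, 12 or 13, supplemented array 1, 3 or 4, or standard array 6, 7, 8 or 10) to 2 (without deficient array 14) and 3 (without supplemented array 2). Calls for supplemented against standard ran from 0 to 1 (without standard array 9 or deficient array 13 or 14) and 2 (without supplemented array 2). The cause of these changes was not tested. No paired analysis was possible because array numbers run on from diet to diet and none is shared.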

Other observations

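On 1 array 2 of the 16 tested acute phase genes stood high, and the hepatocyte complement genes stayed in range. Supplemented array 4 read 822 units for Lcn2 (lipocalin 2, an iron-binding acute phase protein), against 20.2 to 234 units on the other 13 arrays, and 481 units for Lbp (lipopolysaccharide-binding protein), against 122 to 285 units. On the same array C3 X52477_at read 5857 units, C3 M29866_s_at 4182 units, C9 2807 units, C4bpa 2614 units and C4bpb 1362 units, each inside the range of the other 13 arrays. C1qb X71127_at was highest there, at 618 units, with 543 units on the next array. Lcn2 and Lbp were chosen after their values were seen. The other acute phase genes were not read array by array, so these values do not set acute phase genes apart from complement genes.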
